A study of Ovis aries with 2 samples.

Results

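KRT25, KRT27, KRT28 and KRT71 are the inner root sheath (IRS) keratins whose order of onset, co-detection in single cells and level in non-follicle cells are described here, 4 genes of 18161 in the deposited table, chosen by name. Skin from the body side of Hu sheep lambs at day 3 was taken from straight wool animals and from curly wool animals, which the labels also call waved wool individuals. Skins of 3 lambs were pooled per wool type, suspensions of isolated follicles and of whole skin were mixed, and 1 droplet library was made from each pool, so no spread between lambs was measured and no test between the wool types was made. The straight library held 6452 cells with a median of 7373.5 UMIs (a UMI marks 1 captured transcript) and the curly library 7585 cells with a median of 7495 UMIs.

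The IRS is the sheath that moulds the growing hair or wool fibre, and it arises from matrix cells of the bulb. Keratin filaments are built from pairs of 1 type I and 1 type II chain. KRT25, KRT27 and KRT28 are type I keratins and KRT71 is a type II keratin, and all belong to the IRS set of hair follicle keratins. Variants in KRT25, KRT27 and KRT71 are known from mammals with curly or wavy coats. The deposited counts use another build than the RefSeq annotation at hand (ARS-UI_Ramb_v3.0), so the latter gives only the order of genes. There KRT27 stands between KRT26 and KRT28 on chromosome 11, with KRT25 on the other side of KRT26. KRT71 stands between KRT74 and KRT5 on chromosome 3. The type I members are close paralogs, and the same annotation has an uncharacterised gene that overlaps KRT25 and KRT26 and a long non-coding RNA that overlaps KRT27 and KRT28. How reads shared by such genes were counted, and whether strand was used, was not given in the sources used here, so the split between these neighbours is uncertain.

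Cells were clustered with the 4 genes left out of the variable genes, and 22 clusters were obtained. Cluster 10, with 129 straight and 426 curly cells, had the highest summed level of the 4 genes and is called the IRS keratin cluster after its leading genes. KRT71, KRT27, RPTN, KRT25, PRR9 and KRT28 were among the 10 genes that led it. Only 2 of the 5 IRS markers in the table that are not members (GATA3 and DLX3, transcription factors of the IRS) reached the detection limit of 10% of its cells, which is under the 3 needed to name a cluster, so the name rests on the members and their height in it is a description. Of the cells in both libraries, 70 barcodes were shared.

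In the IRS keratin cluster KRT25 was the most abundant of the 4 by UMI count and KRT28 the least. KRT25, a type I chain, had 133 UMIs per cell in straight cells (95% exact Poisson interval 131 to 135) and 202 in curly cells (201 to 203). KRT71, the type II partner, had 103 UMIs per cell in straight cells (102 to 105) and 168 in curly cells (167 to 169). KRT27 had 28.9 and 56.9 (56.2 to 57.7) and KRT28 had 9.38 (8.86 to 9.92) and 8.34 (8.07 to 8.62). The order KRT25, KRT71, KRT27, KRT28 was the same in both libraries, and these intervals cover counting error only, as do all intervals below. The counts are tags that were not divided by transcript length, and capture may differ between genes.

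These means came from few cells. The median straight cell of the cluster had 33 UMIs of KRT25, 1 of KRT27, 1 of KRT28 and 22 of KRT71, and the median curly cell had 49, 3, 1 and 39. The highest single cell reached 1319 UMIs of KRT25 in straight and 4563 in curly. The tenth of cells with the most UMIs held 61.0% of KRT25 and 85.9% of KRT27 in straight cells, and 65.5% and 89.7% in curly cells. KRT27 was thus the most unevenly spread of the 4 in both libraries, and KRT28 reached at most 138 and 125 UMIs in a cell.

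The cluster held most UMIs of every member in both libraries. In straight skin it held 65.7% of KRT25, 71.6% of KRT27, 69.5% of KRT28 and 72.9% of KRT71 UMIs, and in curly skin 79.8%, 82.7%, 79.2% and 83.9%. The matrix-like cluster (576 straight and 992 curly cells) came next, with 17.9% of the KRT25 and 7.42% of the KRT71 UMIs in straight skin, and 8.26% and 4.35% in curly skin. By UMIs per cell the order of the named classes was the IRS keratin cluster, then matrix-like, then hair shaft-like cells for KRT25, KRT28 and KRT71. KRT25 had 8.09 UMIs per straight matrix-like cell (7.86 to 8.33) and 1.89 per hair shaft-like cell (1.74 to 2.05), against 8.98 (8.79 to 9.17) and 3.68 (3.52 to 3.84) in curly skin. For KRT27 this order was not resolved, since straight matrix-like cells had 0.531 UMIs per cell (0.473 to 0.594) and hair shaft-like cells 0.477 (0.402 to 0.561), and in curly skin hair shaft-like cells lay higher, at 1.05 (0.962 to 1.14) against 0.724 (0.672 to 0.779). A small unnamed cluster led by KLK genes (39 straight and 195 curly cells) had 3.18 and 9.89 UMIs of KRT25 per cell and 5.00 and 7.74 of KRT71, carried by few cells, as the medians were 1 and 2 for KRT25 and 0 and 2 for KRT71.

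**Figure D1:**
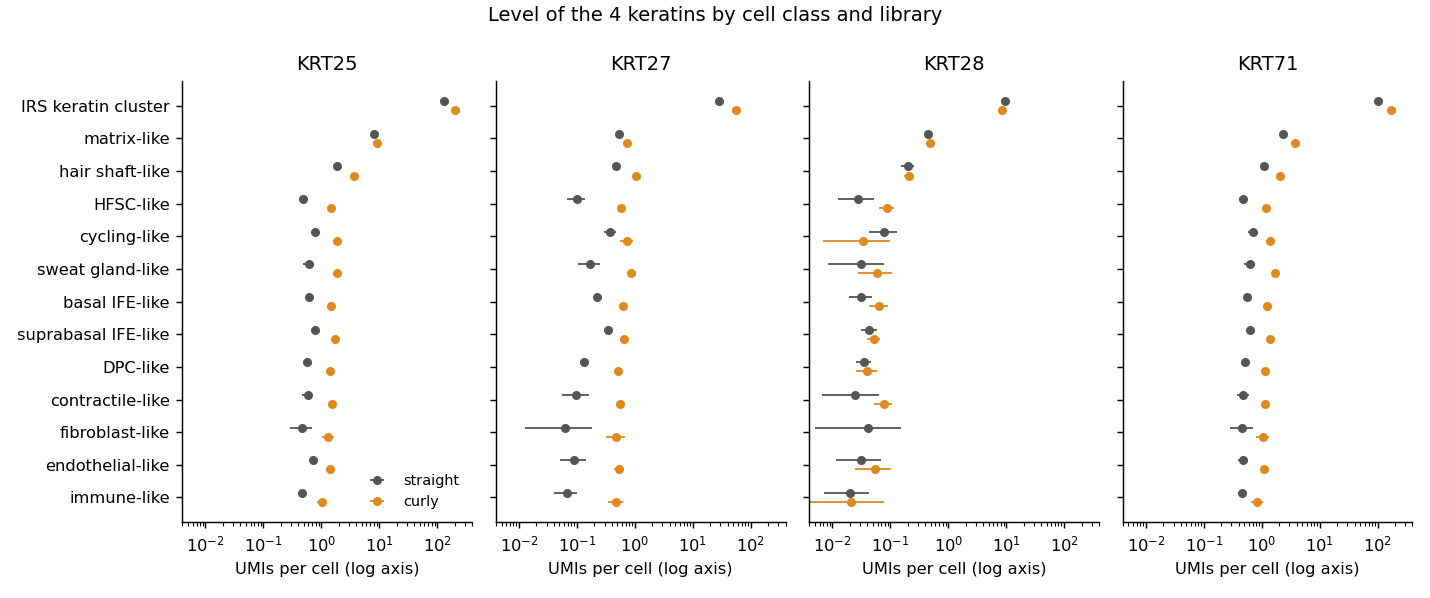
UMIs per cell (log axis) of KRT25, KRT27, KRT28 and KRT71 in each named class, with exact Poisson 95% intervals, in the straight and the curly library. The IRS keratin cluster stands apart for all 4, matrix-like cells follow for KRT25, KRT28 and KRT71, hair shaft-like cells lie above the non-follicle classes for KRT25 (1.89 and 3.68), and the non-follicle classes are higher in curly than in straight for KRT25, KRT27 and KRT71; KRT28 in curly fibroblast-like cells is at 0 and not drawn.

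Cells that should lack these keratins nevertheless carried their UMIs, at a level that was higher in the curly library in every class for KRT25, KRT27 and KRT71. Endothelial-like, immune-like, fibroblast-like, contractile-like, basal and suprabasal interfollicular epidermis (IFE)-like cells were taken as non-follicle cells (2353 straight and 2357 curly). This name is an approximation. The paper assigns ACTA2 and ACTG2 to the dermal sheath of the follicle, and both genes led a contractile-like cluster here. A suprabasal IFE-like cluster had KRT79 and CST6 among its leading genes. Whether these classes include follicle cells was not tested. KRT25 ranged from 0.458 UMIs per cell in fibroblast-like to 0.785 in suprabasal IFE-like cells of the straight library, and from 1.03 in immune-like to 1.70 in suprabasal IFE-like cells of the curly library. KRT71 ranged from 0.457 to 0.636 in straight and from 0.840 to 1.40 in curly classes, and KRT27 from 0.0625 to 0.338 and from 0.468 to 0.659. The ranges of the 2 libraries did not overlap for any of these 3 genes. For KRT28 they did, at 0.0199 to 0.0436 and 0 to 0.0773, and the class at 0, curly fibroblast-like cells, had 57 cells. The curly library also held more UMIs of these genes in all, with 1388 CPM (UMIs per 1000000 UMIs of all genes) of KRT25 against 450 in straight, so higher total and higher background level moved together, and their relation was not tested.

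In share of cells, 37.4% of straight endothelial-like and immune-like cells had a KRT25 UMI (exact Clopper-Pearson interval 33.2 to 41.9, median depth 3632.5 UMIs) and 68.1% of the curly ones (62.0 to 73.7, median depth 2869.5 UMIs). The IRS keratin cluster stood at 99.2% and 99.3%, with median depths of 15762 and 19018 UMIs. For KRT71 the non-follicle shares were 34.8% and 59.2%, for KRT27 6.88% and 38.5% and for KRT28 2.43% and 4.23%. A single UMI of KRT25 or KRT71 therefore did not tell an IRS cell from an endothelial cell in these libraries.

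The background level rose less than the depth of the cell. From the shallowest to the deepest non-follicle cells, median depth went from 700 to 19868 UMIs in straight and from 692 to 21630.5 in curly cells. KRT25 went from 0.437 to 1.06 UMIs per cell in straight and from 0.966 to 2.38 in curly cells. KRT28 went from 0.0316 to 0.0412 in straight and from 0.0391 to 0.0769 in curly cells, with overlapping intervals in each library. Because of this, a level in CPM was highest where cells were shallow. The highest KRT25 values among the classes, 269 CPM (straight) and 760 CPM (curly), were those of fibroblast-like cells, whose median depths were 899 and 871 UMIs and whose UMIs per cell were the lowest of the 6 classes in straight (0.458) and 1.30 in curly skin.

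**Figure D2:**
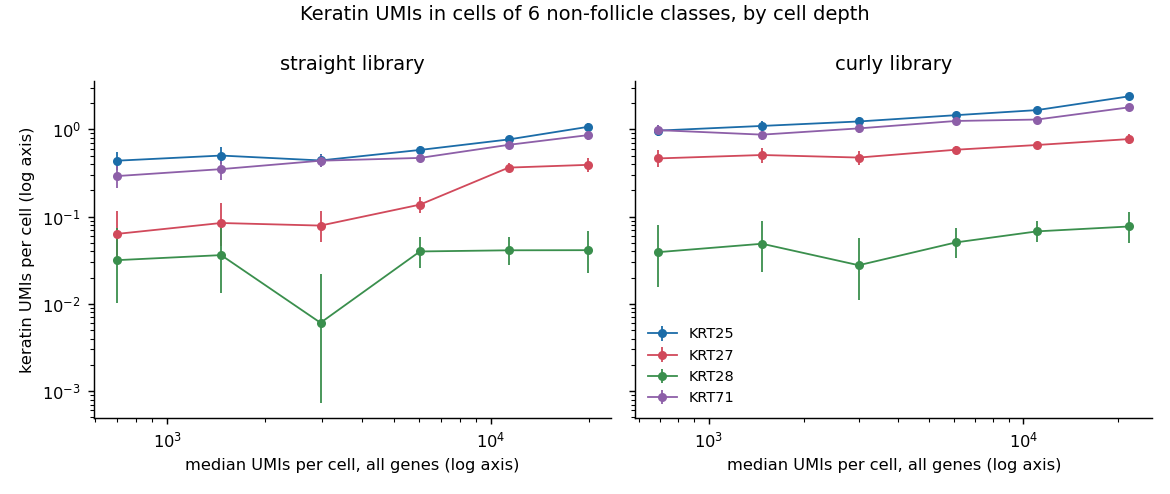
UMIs per cell of each keratin (log axis) against the median UMIs per cell of all genes (log axis) in 6 depth ranges of non-follicle cells, with exact Poisson 95% intervals. KRT25 rises from 0.437 to 1.06 in straight and from 0.966 to 2.38 in curly cells over the whole depth range, and KRT28 is the lowest of the 4 in every range.

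The make-up of the 4 genes in background cells was near that of the IRS keratin cluster, except for KRT27. Of the UMIs of the 4 genes in endothelial-like and immune-like cells, KRT25 made up 50.2% in straight (45.9 to 54.4) and 45.3% in curly cells (41.6 to 48.9), against 48.4% and 46.4% in the IRS keratin cluster. KRT71 made up 41.0% (36.9 to 45.2) and 35.2% (31.8 to 38.8), against 37.6% and 38.6%. KRT27 made up 6.63% in straight background (4.71 to 9.02), below the 10.5% of the cluster, and 18.0% in curly background (15.3 to 21.0), above the 13.1% of the cluster. Within the straight library the KRT27 share also differed between classes, at 6.56% in immune-like (4.05 to 9.95) and 18.7% in suprabasal IFE-like cells (16.9 to 20.6), while it stayed between 16.8% and 19.8% in the 6 curly classes.

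The straight suprabasal and basal IFE-like cells held single cells with KRT27 and hardly any other member. The variance of KRT27 over its mean was 6.02 in suprabasal and 5.51 in basal IFE-like cells, against 1.03 in immune-like cells, and the straight cycling-like cells, which are no part of these classes, had 5.82. Cells were called positive for a member where its UMIs exceeded the background rate of endothelial-like and immune-like cells of the library, at a Poisson upper tail under 0.001, which took at least 5 UMIs of KRT25, 3 of KRT27, 2 of KRT28 and 5 of KRT71 in straight and 7, 5, 2 and 6 in curly cells. By this rule 28 straight non-follicle cells were positive for KRT27 alone (22 suprabasal and 6 basal IFE-like), against 9 for KRT25, 3 for KRT28 and 4 for KRT71 alone. In curly skin KRT27 alone was found in 4 cells. Median depth was 11805 UMIs in the suprabasal and 7057 in the basal cells, and the part of depth in these calls was not tested. The 7 straight cells with at least 10 UMIs of KRT27 had 11 to 30 of them and at most 2 UMIs of KRT25 and of KRT71, at depths of 9046 to 18320 UMIs, and none of them was among the cells removed as doublets. These cells were singled out after their values were seen.

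Positive calls were rare in the non-follicle classes. In the non-follicle classes that did not set the rate, 0.377% of straight and 0.668% of curly cells were positive for KRT25, and 0.215% and 0.906% for KRT71. KRT27 was positive in 1.56% and 0.286% and KRT28 in 0.161% and 0.286%. In the IRS keratin cluster the shares were 82.9% and 90.8% for KRT25, 69.0% and 82.4% for KRT71, 45.7% and 45.1% for KRT28 and 39.5% and 36.9% for KRT27. Matrix-like cells were positive for KRT25 in 37.0% and 32.0%, for KRT71 in 6.08% and 8.87%, for KRT28 in 7.29% and 6.55% and for KRT27 in 3.30% and 0.706%. Matrix-like cells are deep, and with the rate taken from non-follicle cells of at least 16000 UMIs their KRT25 share was 31.8% and 23.3%, while 0.882% and 1.18% of those deep non-follicle cells were positive. The hair shaft-like cells were positive for KRT25 in 5.59% and 6.77%, and 3 straight and 4 curly ones were positive for all 4 members.

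To follow the order of onset, the matrix-like cells and the IRS keratin cluster were put in 1 order by diffusion pseudotime, made without the 4 genes, and cut into 15 bins of equal cell number over both libraries. The order was started from a cell in the middle of the matrix-like cluster. The early bins therefore give distance from that middle, and bin 1 need not hold the least differentiated cells. A level in bin 1 is thus not read as a time of onset. The number of cells of a library in a bin ran from 27 to 114. Bins 14 and 15 held 32 and 27 straight cells and 110 and 114 curly cells, nearly all from the IRS keratin cluster. Along this order GATA3, which was no part of the members, went from 56.4 to 301 CPM in straight and from 92.6 to 229 CPM in curly cells between the first and the last bin. TOP2A, a gene of dividing cells, did not fall steadily along the order. In straight cells it was at 50.6 CPM in bin 1, highest at 261 CPM in bin 13, and at 2.06 CPM in bin 15. In curly cells it was at 38.5 CPM in bin 1, highest at 165 CPM in bin 9, and at 73.7 and 3.61 CPM in bins 13 and 15.

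KRT25 was positive in the most cells of the 4 in every bin, and KRT27 in the fewest in bins 12 to 14. Before these bins KRT27 was not always the rarest. In bin 10 of straight cells it was positive in 9.375%, against 6.25% for KRT71 and 3.125% for KRT28. KRT25 was positive in 24.5% of straight and 38.2% of curly cells of bin 1, where KRT71 was positive in 1.89% and 4.49% and KRT27 in 0% and 1.12%. In bin 6 KRT25 stood at 48.8% and 36.4% of cells, and KRT71 at 9.30% and 13.1%. The steep rise came in bins 12 to 14 in both libraries. In bin 12 KRT25 was positive in 60.0% of straight and 69.2% of curly cells, KRT71 in 34.3% and 56.1%, KRT28 in 20% and 24.3%, and KRT27 in 5.71% and 1.87%. In bin 14 KRT27 reached 68.8% of straight and 49.1% of curly cells.

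Set against its own highest bin, KRT28 reached the 10% mark no later than the other members in both libraries. Such a mark sets aside abundance but also depends on how far a gene climbs at the end. Curly KRT28 was at 739 CPM in bins 14 and 15, while curly KRT25 went from 10170 to 32175 CPM. An earlier mark is thus not by itself an earlier onset. KRT28 reached 10% of its highest background-subtracted CPM in bin 13 in straight and bin 12 in curly cells. KRT25 reached this mark in bin 13 in both libraries, KRT71 in bin 14 in both, and KRT27 in bin 14 in straight and bin 15 in curly cells. The 50% mark fell in bin 14 for KRT28 in both libraries and in bin 15 for KRT25 and KRT27 in both, and for KRT71 in bin 14 in straight and bin 15 in curly cells. At 10% KRT28 and KRT25 thus came no later than KRT71, and KRT27 came no earlier than KRT71, in both libraries, with steps of 1 bin, which is the resolution of this measure. The straight KRT28 mark fell at 60% of the order with 25 bins, and in bin 9 of the 15 a single straight cell held 66 of its 77 UMIs. The order was not kept when cells were ordered by the summed level of the 5 listed IRS markers other than the members. There the 10% mark of KRT25, KRT27 and KRT71 fell in the same bin in each library, and that of curly KRT28 fell later. The 50% mark of KRT27 then came before those of KRT25 and KRT71 in curly cells, and after them in straight cells.

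**Figure D3:**
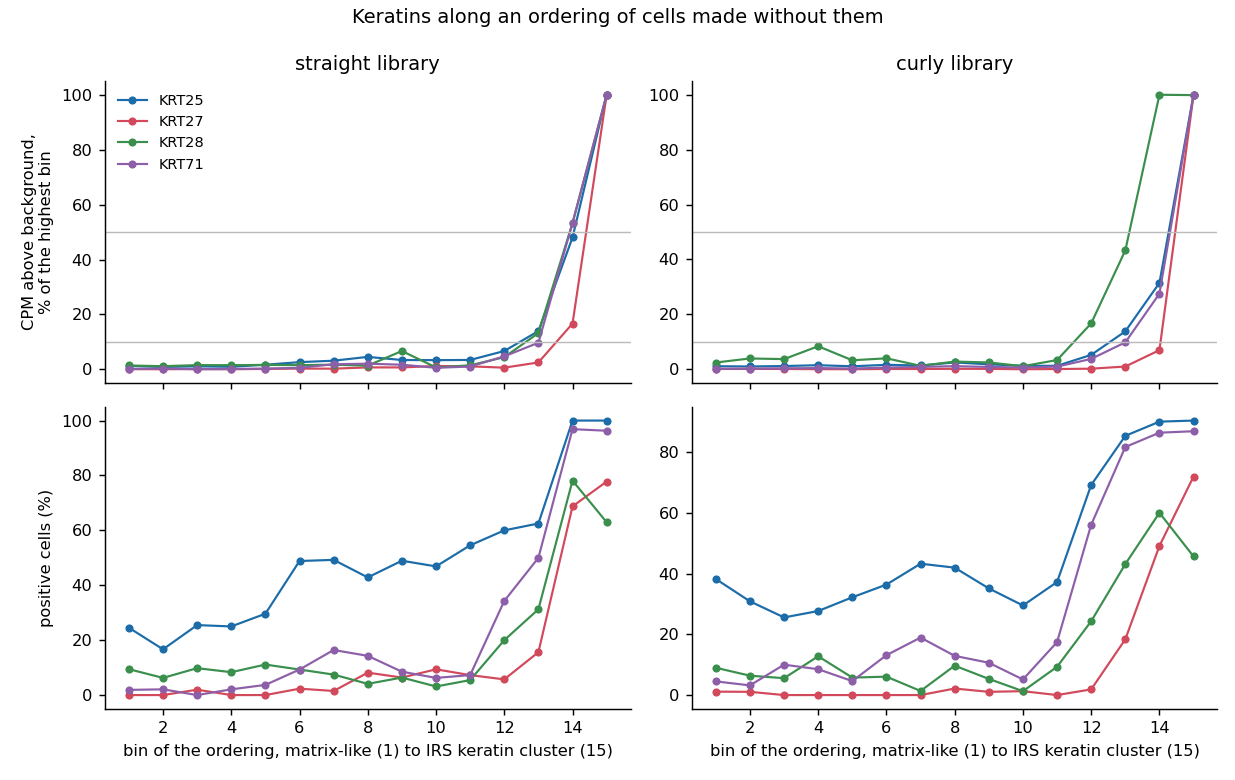
Top, background-subtracted CPM of each keratin as a percent of its own highest bin, with lines at 10% and 50%; bottom, percent of cells positive for each keratin, both against 15 bins of cells from matrix-like (1) to the end of the IRS keratin cluster (15), in the straight and the curly library. KRT25 is positive in 24.5% and 38.2% of cells in bin 1. KRT28 is near its highest level by bin 14 in curly cells. KRT27 reaches 10% last in curly cells, in bin 15, and together with KRT71 in straight cells, in bin 14.

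KRT28 did not follow the last rise of the other members in curly cells. From bin 14 to bin 15 KRT28 went from 13.1 to 10.8 UMIs per curly cell, while KRT27 went from 16.8 to 193, KRT25 from 180 to 469 and KRT71 from 141 to 419. Its share of the 4 genes' UMIs went from 3.73% (3.54 to 3.93) to 0.986% (0.932 to 1.04). In straight cells KRT28 went from 12.4 to 26.4 UMIs per cell and its share from 3.83% (3.47 to 4.21) to 3.28% (3.05 to 3.53). The cells of the last bin differed in depth between the libraries, with a median of 4444.5 UMIs in curly and 19397 in straight cells. Among last-bin cells with at least 5000 UMIs (53 curly and 24 straight) the KRT28 share was 0.942% and 3.29%, so the gap between the libraries was as large in deep cells. The lower count per cell in the last curly bin was not seen on other scales, since KRT28 was at 739 CPM in both bins, and the deep last-bin curly cells held 21.1 UMIs of KRT28 per cell, more than the cells of bin 14.

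KRT27 took up a growing share at the end of the order in both libraries. It made up 5.23% of the 4 genes' UMIs in bin 14 and 14.3% in bin 15 of straight cells (13.8 to 14.8), and 4.79% and 17.7% of curly cells (17.5 to 17.9). In bin 1 it had lain at 2.54% and 7.09%, and the 0.764 UMIs per curly cell there were near the 0.772 of deep curly non-follicle cells.

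Cells were also grouped by their own KRT25 and KRT71 UMIs instead of by pseudotime. As these UMIs are most of the sum of the 4 genes, a share of that sum falls with the grouping itself, so the UMIs per cell are given first. Cells of the matrix-like and IRS keratin clusters with 100 to under 300 UMIs of KRT25 and KRT71 together had 20.3 UMIs of KRT28 in straight (37 cells) and 12.8 in curly skin (111 cells). Those with 300 to under 1000 had 21.7 (12 cells) and 18.5 (61 cells), and those with 1000 or more had 4.20 (10 cells) and 9.34 (38 cells). KRT28 per cell was thus highest in the middle groups of both libraries, while KRT27 per cell went from 14.8 to 95.5 and 198 in straight and from 10.96 to 26.98 and 541 in curly cells over the same 3 groups. The KRT28 share of the 4 genes was 9.99% in the first and 0.231% in the last of these groups in straight cells, and 6.30% and 0.289% in curly cells. The KRT27 share went from 7.28% to 10.9% in straight and from 5.38% to 16.7% in curly cells. The 2 libraries differed in between, since the group of 300 to under 1000 UMIs had a KRT27 share of 13.4% in straight (12 cells) and 5.05% in curly cells (61 cells). With 10 and 12 straight cells these groups are thin, and a cell's position among layers of the sheath and its stage cannot be told apart here.

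**Figure D4:**
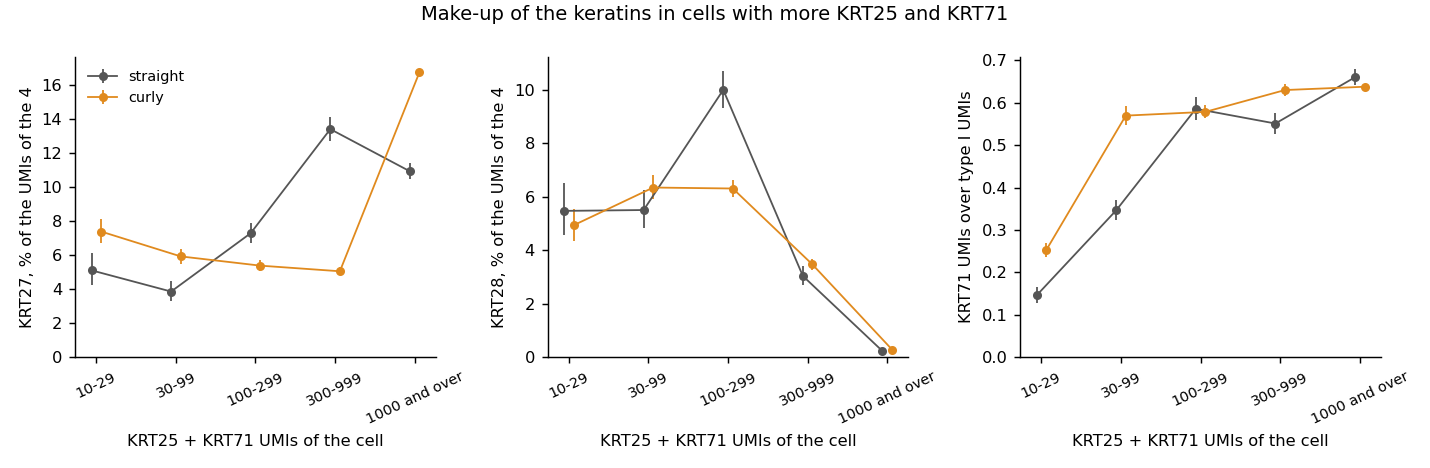
Share of KRT27 (left) and of KRT28 (middle) among the UMIs of the 4 keratins in percent, and UMIs of KRT71 over those of KRT25, KRT27 and KRT28 (right), in 5 groups of matrix-like and IRS keratin cluster cells by their summed KRT25 and KRT71 UMIs, with exact binomial 95% intervals. KRT28 is at 0.231% in straight and 0.289% in curly cells in the highest group, where KRT27 stands at 10.9% and 16.7%; the grouping genes are part of the denominator.

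Single cells positive for 1 member of a pair and not for the other (discordant cells) were also counted, which needs no pseudotime. Such counts show which member was detected without the other and do not measure time. Among the 705 straight and 1418 curly cells, 202 straight cells were positive for KRT25 without KRT71 and 6 for KRT71 without KRT25, so that 97.1% of the discordant cells had KRT25 (93.8 to 98.9). In curly cells the numbers were 286 and 21, or 93.2% (89.7 to 95.7). KRT25 without KRT27 was found in 251 straight and 541 curly cells, and KRT27 without KRT25 in 1 cell of each library. KRT71 without KRT27 was found in 71 straight and 279 curly cells, against 17 and 4 for the reverse. KRT28 without KRT27 was found in 63 straight and 163 curly cells, against 32 and 70 for the reverse.

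Since an abundant gene is called more easily, the UMIs of each member were also thinned to the last-bin level of KRT28, the least abundant. With this thinning, KRT27 remained the member less often found without the other in each of its pairs. Of the cells discordant for KRT25 and KRT27, 95.4% of straight (89.6 to 98.5) and 93.3% of curly ones (88.3 to 96.6) had KRT25. KRT28 without KRT27 made up 74 of 93 straight and 222 of 259 curly discordant cells. Of the cells discordant for KRT25 and KRT71 after thinning, 81.2% of straight ones had KRT25 (71.2 to 88.8). In curly cells the share was 59.8% (50.4 to 68.8), which is close to an even split. KRT25 and KRT28 were not ordered alike in the libraries after thinning, as 68.0% of straight discordant cells had KRT25 (59.0 to 76.2) but only 41.6% of curly ones (35.5 to 47.9). For KRT28 and KRT71 the thinned split was 50 against 41 cells in straight and 160 against 94 in curly skin. In unthinned counts the larger number lay on the other side, at 35 against 58 and 48 against 230. The straight thinned share with KRT28 was 54.9% (44.2 to 65.4), which includes an even split, so a straight reversal is not resolved. The place of KRT28 against KRT25 and KRT71 thus depended on how abundance was treated. It also depends on the bin that sets the thinning. In curly cells KRT28 made up 0.986% of the 4 genes' UMIs in the last bin and 3.73% in bin 14. Thinning to the last bin kept a fraction of 0.0230 of curly KRT25 UMIs, less than the levels of bin 14 would have kept. The pairs of KRT27 depend on this bin too, since 0.230 of straight and 0.0558 of curly KRT27 UMIs were kept, and all of KRT28. KRT27 rose steeply into the last bin, so more of it was cut than the levels of bin 14 would have cut. The last bin itself comes from the pseudotime order. Thinning to another bin was not tried, so neither the curly reversals nor the thinned splits of KRT27 settle the order. With every rule tried for these discordant cells, KRT27 without KRT25 and KRT27 without KRT71 were the rarer states. Its place against KRT28 rested on the positive call. With any single UMI counted, 61.2% of straight and 80.7% of curly discordant cells had KRT27 without KRT28.

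Within the IRS keratin cluster most cells carried a type I and a type II keratin together. Both types were positive in 67.4% of straight (58.6 to 75.4) and 80.8% of curly cells (76.7 to 84.4). Type I without KRT71 was found in 17.8% (11.7 to 25.5) and 11.03% (8.22 to 14.4), KRT71 without any type I member in 2 of 129 and 7 of 426 cells, and neither type in 13.2% and 6.57%. In these counts KRT71 alone was 2 of 25 unpaired straight and 7 of 54 unpaired curly cells, and with each cell thinned to 2000 UMIs it was 4 of 17 and 19 of 63. Most matrix-like cells had neither type, 61.6% of straight and 66.0% of curly cells, with type I alone in 32.3% of straight (28.5 to 36.3) and 25.1% of curly cells (22.4 to 27.9), both types in 5.73% and 7.76%, and KRT71 alone in 2 of 576 and 11 of 992 cells.

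Of the 16 combinations of the 4 members, all 4 together were found in 25.6% of straight (33 cells) and 21.8% of curly cells (93 cells). KRT25 with KRT71 alone was found in 13.95% and 22.5%, KRT25 with KRT28 and KRT71 in 14.7% and 21.4%, and KRT25 with KRT27 and KRT71 in 11.6% and 14.3%. KRT25 alone made up 12.4% and 9.39%. No cell of either library's IRS keratin cluster was positive for KRT27 without KRT25. In the non-follicle classes both types were positive in 0 of 2353 straight cells, which allows a share of up to 0.157%, and in 5 of 2357 curly cells. With each cell thinned to 2000 UMIs, which left out 24 straight and 49 curly cells of the cluster, all 4 members were positive in 7.62% and 7.43% and both types in 60.0% and 65.5%, so the share with all 4 was lower at this lower depth.

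**Figure D5:**
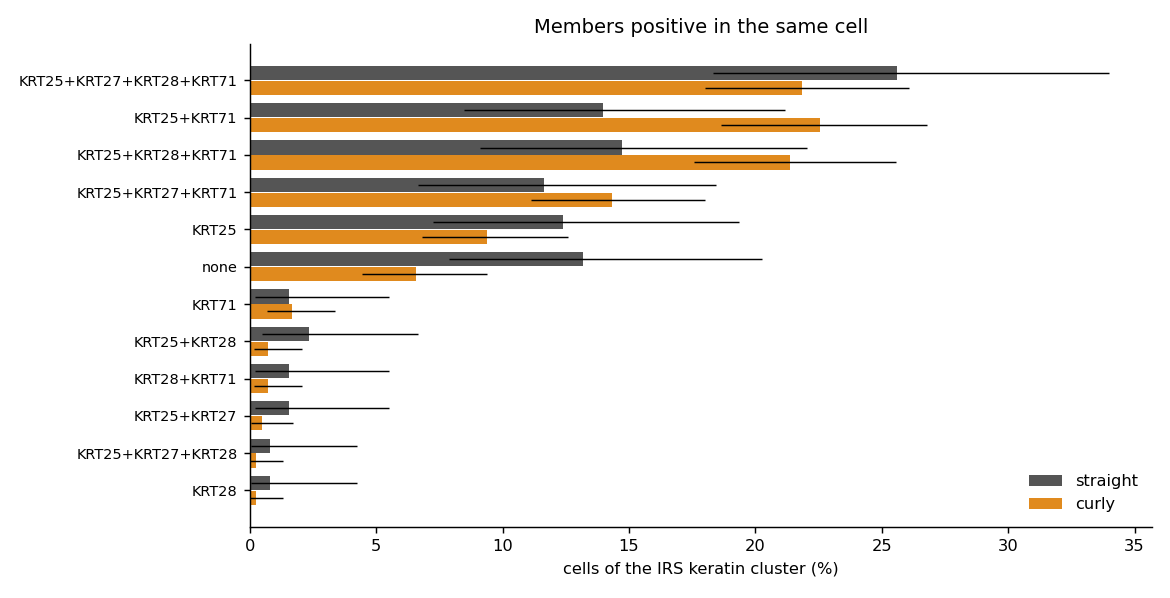
Percent of IRS keratin cluster cells positive for each combination of the 4 keratins, with exact Clopper-Pearson 95% intervals, in the straight (129 cells) and the curly library (426 cells). All 4 together take 25.6% and 21.8% of the cells, and combinations without KRT25 are rare.

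KRT25 and KRT71 moved together cell by cell, and KRT28 followed them less. Across the cells of the cluster, Pearson's r of log2(UMIs + 1) between KRT25 and KRT71 was 0.91 in straight (129 cells) and 0.92 in curly skin (426 cells). KRT27 and KRT71 gave 0.68 and 0.70, KRT28 and KRT25 0.38 and 0.33, and KRT28 and KRT27 0.38 and 0.23. The cells share library and depth, and on log2(CPM + 1) the first of these was 0.77 and 0.79 and the last 0.37 and 0.20. Of the cells with at least 30 UMIs of KRT28, 9 of 12 straight and 30 of 37 curly ones were positive for KRT27. Of those with at least 30 UMIs of KRT27, 13 of 19 straight and 31 of 66 curly ones were positive for KRT28, so high KRT27 without KRT28 was common in curly cells.

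The ratio of KRT71 to the summed type I UMIs was higher late than early in the order, highest in bin 14, and lower again in bin 15. In the IRS keratin cluster it was 0.604 in straight (0.591 to 0.617) and 0.628 in curly cells (0.622 to 0.634). In matrix-like cells it was 0.260 (0.245 to 0.276) and 0.367 (0.353 to 0.381), and 0.226 and 0.328 with the background subtracted. It went from 0.145 in bin 1 to 0.730 in bin 14 (0.702 to 0.759) and 0.566 in bin 15 (0.551 to 0.582) of straight cells. In curly cells it went from 0.217 to 0.671 (0.657 to 0.685) and 0.623 (0.616 to 0.630). The change was not steady, as straight cells were at 0.450 in bin 7 and 0.149 in bin 10. Type I UMIs were thus in excess in every bin of both libraries. In matrix-like cells KRT25 alone made up 70.8% of the 4 genes' UMIs in straight and 64.5% in curly cells. As tags are captured with unlike efficiency per gene, the ratio is compared between cells and not read as a ratio of molecules.

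Between the libraries KRT25, KRT27 and KRT71 were higher and KRT28 lower in curly cells of the IRS keratin cluster, each by less than 2-fold. On the CPM scale KRT25 was at 9095 in straight and 11617 in curly cells, a log2 ratio of curly over straight of 0.35 (0.33 to 0.38). KRT71 was at 7071 and 9650 CPM, a log2 ratio of 0.45 (0.42 to 0.48), and KRT27 at 1977 and 3275 CPM, a log2 ratio of 0.73 (0.68 to 0.78). KRT28 went the other way, at 642 and 480 CPM with a log2 ratio of -0.42 (-0.51 to -0.32). None of the 4 passed 2-fold in either direction over all cells of the cluster, as against 1.42% of the 5203 genes with at least 100 UMIs in this cluster that were past 2-fold higher in curly cells and 2.88% past 2-fold lower. Among cells that pass the gene minimum the study states, KRT27 was past 2-fold, at a log2 ratio of 1.08. The median log2 ratio of the 5203 genes was -0.24, and relative to it KRT25, KRT27 and KRT71 lay at 0.59, 0.97 and 0.69 and KRT28 at -0.18. Ranked among these genes by log2 ratio, KRT25, KRT27 and KRT71 stood at percentiles 92.8, 97.4 and 94.9, and KRT28 at 30.8.

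These differences between the libraries changed when the last bin was left out, an alternative chosen after seeing the data. Without its cells the log2 ratio of KRT27 was -0.18 and that of KRT28 0.19, both reversed, that of KRT25 was 0.16 and that of KRT71 0.075. In bin 14 the log2 ratios of CPM were 0.03 for KRT25 (-0.02 to 0.07), -0.17 for KRT27 (-0.31 to -0.03), -0.08 for KRT28 (-0.24 to 0.08) and -0.12 for KRT71 (-0.17 to -0.07). In bin 15 they were 0.64, 1.05, -0.99 and 0.83. The libraries were close in bin 14 and not in all bins before it. In bin 13 the log2 ratios were 0.62 for KRT25 (0.52 to 0.71), -0.083 for KRT27 (-0.50 to 0.36), 0.71 for KRT28 (0.34 to 1.11) and 0.83 for KRT71 (0.70 to 0.96). In bin 10 KRT27 was lower in curly cells, at -1.49 (-2.06 to -0.94), and KRT71 higher, at 0.96 (0.66 to 1.27). In bins 1 to 4, where KRT27 is near background, its log2 ratio lay between 1.77 and 2.32, and the higher background of the curly library moved with it. In matrix-like cells KRT25 was at 524 and 517 CPM, a log2 ratio of -0.02 (-0.07 to 0.03), and KRT71 at 153 and 215 CPM, a log2 ratio of 0.49 (0.40 to 0.58). The background UMIs per cell were higher in curly cells, and their part in the KRT71 value of matrix-like cells was not tested.

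Among the other genes of the IRS, those measured were mostly low. KRT26, the IRS keratin gene that neighbours KRT25 and KRT27, had 0 UMIs in the straight and 15 UMIs in the curly IRS keratin cluster, so it was far below its neighbours. LOC101110219 and LOC101109951, which stand between KRT2 and KRT74 in RefSeq and which the table gives by number, had 181 and 25.4 CPM in straight and 64.9 and 10.7 CPM in curly cells of the cluster, against at most 4.83 CPM in matrix-like cells. LOC101110219 was late, at 7.88 CPM in bin 14 and 694 CPM in bin 15 of straight cells, and at 14.9 and 271 CPM in curly cells. Of the 7 non-keratin IRS genes that were measured, GATA3, DLX3, TGM3 (a transglutaminase that crosslinks sheath proteins) and HSPB1 (a small heat shock protein) lay higher in the IRS keratin cluster than in matrix-like cells in both libraries. GATA3 was at 247 and 262 CPM against 112 and 140. CTSL, a cathepsin, was at 2.65 and 1.08 CPM against 3.48 and 5.22, and TCHHL1 and PADI3 had at most 2 UMIs in the cluster. KRT72, KRT73, KRT74 and TCHH were not analysed under these names. Whether LOC101110219 or LOC101109951 is KRT72 or KRT73 was not tested.

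The 15 measured keratins of the hair shaft and of other layers were compared by CPM, without an interval or a minimum count. In both libraries 6 were lower in the IRS keratin cluster than in matrix-like cells (KRT35, KRT5, KRT14, KRT15, KRT17 and KRT79). By the same count 3 were higher in both (KRT2, KRT82 and KRT84) and 6 differed in direction between the libraries. Straight KRT82 had 1 UMI in the cluster and 1 UMI in matrix-like cells, so its direction there is not resolved. Straight KRT17 was nearly level, at 863 against 896 CPM. KRT35, a keratin of the hair shaft, was at 286 and 176 CPM in the IRS keratin cluster and at 565 and 660 CPM in matrix-like cells. KRT5, a basal keratin, was at 580 and 490 CPM against 876 and 842, and KRT14 at 255 and 384 CPM against 601 and 515. KRT84, a hair keratin, was at 5.30 and 11.1 CPM against 3.03 and 3.13, and KRT2, an epidermal keratin, at 12.2 and 4.05 CPM against 2.02 and 2.38. KRT6A, a companion layer keratin, was at 22.3 and 75.6 CPM, so that it was lower than in matrix-like cells in straight (26.0) and higher in curly skin (43.3).

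Across 22 clusters in 2 libraries, the patterns nearest to KRT25 were those of KRT71 (Pearson's r 0.96 of log2(CPM + 1) over 44 points), RPTN (0.92), PRR9 (0.91), KRT27 (0.88) and LOC101113339 (0.86). KRT71 had KRT25, RPTN (0.95), PRR9 (0.92), KRT27 (0.89) and LOC101113339 (0.87) nearest. KRT27 had RPTN (0.92), LOC101113339 (0.90), KRT71, KRT25 and PRR9 (0.80). KRT28 stood apart, with LRAT (0.85), which encodes an enzyme of retinol esterification, PADI1 (0.84), a peptidylarginine deiminase, PRR9 (0.82), KRT25 (0.79) and GPR37 (0.78) nearest. These 44 points share libraries and the background level described above. RPTN, which encodes repetin of the cornified envelope, rose late, from 1468 to 7083 CPM in straight and from 1756 to 11209 CPM in curly cells between bins 14 and 15.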

How the data were processed

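Per the labels and the methods, the authors processed the reads with Cell Ranger (3.0.2 in the submitters' processing notes, another version in the methods), aligned them to Oar_rambouillet_v1.0 and filtered cells in Seurat. They deposited 1 table of natural log values, ln of 1 plus UMIs scaled to 10000 per cell. UMI counts were calculated back from these natural log values, and 100% of the 28552149 values above 0 were whole within 0.01. The table holds fewer cells than the study counts, and 8285 of its 14037 cells have at least the 1750 genes that the study's supplement states as a filter. No column of another sample was present.

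Libraries were integrated by anchors (Seurat 5.3.0, R 4.3.3; 2000 variable genes, 30 dimensions, the members left out) and clustered at the lowest resolution with at least 19 clusters. Clusters were named from marker lists (mean log2 ratio at least 1.5, at least 3 markers detected in 10% of cells, 1 among the 10 leading genes); these limits were set with the data in view. Doublets (the highest 6% of Scrublet scores, 842 cells) were kept, and removed as an alternative. Pseudotime came from scanpy 1.11.5 with 30 neighbours and 10 components. Sums of UMIs have exact Poisson intervals, shares exact Clopper-Pearson intervals and ratios an interval from the binomial split, all at 95% and for counting error only. A count of 0 over a whole library allows up to 3 counts (0.0518 CPM in the straight, 0.0386 CPM in the curly library). Genes named beside the members are the other IRS, hair shaft and epidermal keratins, the non-keratin IRS genes and the 5 genes with the nearest pattern per member, and the leading genes of the cluster. The members, lists and tests were chosen with earlier results of these data known. Methods were tested on simulated data. KRT14 and KRT15 are listed as LOC101118459 and LOC101117682 in the table and were matched through RefSeq. Alternatives changed the clustering, doublets, gene minimum, scaling, ordering, bins and positive call. The mapping of samples to groups is that of the labels; each wool type is 1 library, so no test was run. The library totals were 57956122 UMIs (straight) and 77634565 UMIs (curly).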

Additional observations from a re-analysis of the deposited data

How the results depend on the processing

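No paired analysis was possible because each wool type is 1 library and no result comes from a test. Of the values recomputed under alternatives, 232 were counted as unmoved, 107 moved further and 7 reversed. A value with a counting interval was unmoved if it shifted by less than that interval. The marks of the order of onset have no counting interval, and for them a shift of up to 1 bin of the main order was allowed. Many of the 232 are such marks, so their number is not a measure of counting error alone. The causes of the changes were not tested.

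Leaving out the last bin, chosen after seeing the data, reversed the curly over straight log2 ratio of KRT27 (-0.18) and KRT28 (0.19), and gave 0.16 for KRT25 and 0.075 for KRT71. The cluster levels without it were 5075, 448, 355 and 3919 CPM in straight and 5675, 396, 405 and 4130 CPM in curly cells (KRT25, KRT27, KRT28, KRT71), and the type II to type I ratios 0.667 and 0.638. Without the tenth of cells highest in the 4 genes, also added later, the log2 ratios were 0.20, 0.15, -0.57 and 0.29.

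The log2 ratios of KRT25, KRT27 and KRT71 were 0.28, 0.65 and 0.36 with the members among the variable genes, 0.53, 0.95 and 0.62 without doublets, and 0.42, 1.08 and 0.56 in cells that pass the gene minimum the study states, where KRT27 is past 2-fold. Resolution 0.8 gave 0.39 for KRT25. The mean of per-cell CPM gave 0.23, -0.54 and 0.32 for KRT25, KRT28 and KRT71, and scaling to the median gene 0.59, 0.97, -0.18 and 0.69 for the 4 genes.

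With the members among the variable genes the cluster levels were 9918, 2167, 706 and 7815 CPM in straight cells (KRT25, KRT27, KRT28, KRT71) and 12048, 3404 and 10049 CPM in curly cells (KRT25, KRT27, KRT71). For KRT25, KRT27 and KRT71, removing doublets gave 8196, 1728 and 6383 CPM in straight and 11805, 3340 and 9815 CPM in curly cells. That gene minimum gave 8519, 1443 and 6400 CPM in straight and 11399, 3046 and 9407 CPM in curly cells, and background levels of 0.85, 0.114 and 0.671 UMIs per straight and 1.80, 0.710 and 1.29 UMIs per curly cell. Resolution 0.8 gave 8912 CPM of KRT25 in straight cells.

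Ordering cells by the IRS markers put the 10% mark of KRT25, KRT27 and KRT71 at 33.3% of the order in straight and 6.67% in curly cells, and of curly KRT28 at 66.7%. The 50% marks were then 80%, 86.7% and 73.3% in straight and 53.3%, 26.7% and 53.3% in curly cells. With 25 bins the 10% mark of straight KRT28 was at 60%.

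Among discordant cells, thinning the members reversed KRT25 against KRT28 in curly cells (41.6% with KRT25) and KRT28 against KRT71 (54.9% straight and 63.0% curly with KRT28). The interval of the straight value includes an even split. It gave 95.4%, 68.0% and 81.2% for KRT25 over KRT27, KRT28 and KRT71 in straight cells, 93.3% and 59.8% over KRT27 and KRT71 in curly cells, 20.4% and 14.3% for KRT27 over KRT28, and 7.80% for KRT27 over KRT71 in curly cells. Counting any UMI reversed KRT27 against KRT28 (61.2% straight, 80.7% curly). It gave 95.5% and 95.1% for KRT25 over KRT27, 81.5% and 78.7% for KRT25 over KRT71, 10.4% and 3.49% for KRT28 over KRT71, and in curly cells 99.5% for KRT25 over KRT28 and 15.5% for KRT27 over KRT71. A Poisson tail under 1e-05 gave 100% for KRT25 over KRT27 in both libraries, 23.1% and 8.20% for KRT28 over KRT71, and in curly cells 99.8% for KRT25 over KRT28 and 38.7% for KRT27 over KRT28. The rate of deep non-follicle cells, added later, gave 100% for straight KRT25 over KRT27, and in curly cells 99.3% for KRT25 over KRT28 and 12.2% for KRT28 over KRT71.

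All 4 members were positive in 40.3% of straight and 49.3% of curly cluster cells with any UMI counted, where both types were positive in 88.4% and 98.1%. Thinning to 2000 UMIs gave 7.62% and 7.43% for all 4 and 65.5% for both types in curly cells. For all 4 in curly cells, the stricter tail gave 16.4% and the deep rate 17.6%. With 1 library of 3 pooled lambs per wool type, differences between lambs, pools and wool types cannot be told apart.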
